A study of Mus musculus with 30 samples.

Results

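Libraries labelled p53 KO were compared with i4F control libraries in kidney and in pancreas of doxycycline-treated mice, and the differences were then set against each other. For every gene, the difference between p53 KO and control was taken in kidney and in pancreas, and the pancreas difference was subtracted from the kidney one. The comparison drew on 20 of the 30 libraries of the series, 5 in each of 4 groups, and on 13049 genes of the 18862 names that the kidney and pancreas tables share. A gene was tested where at least 5 of the 20 libraries reached 1 FPKM (fragments per kilobase of transcript, relative to all mapped fragments).

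Both control groups are labelled i4F, a mouse strain in which doxycycline switches on 4 factors, Sox2, Klf4, Myc and Oct4, the product of Pou5f1. The kidney libraries without p53 carry the label i4F p53 KO. Those of pancreas carry p53 KO alone, so that the cassette is not stated for them. All animals were C57BL/6 and drank 0.2 mg/ml doxycycline for 7 days, so no group shows either tissue without the drug. Age and sex are not given in the sources used here, nor is the promoter that drives the cassette or the way the Trp53 allele was deleted. The labels speak of 5 treated mice a strain and do not say whether kidney and pancreas libraries of 1 number came from the same mouse.

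The protein p53, encoded by Trp53, is a transcription factor that responds to DNA damage and other stress by raising genes for cell cycle arrest, repair and cell death. It acts as a barrier to reprogramming by the 4 factors, so that its loss is known to let more cells leave their identity. The pancreas is mostly acinar tissue, which makes digestive enzymes, while the kidney is mostly tubule epithelium that recovers solutes from urine and is known to switch on a set of injury genes, among them Lcn2 and the fibrinogen genes, when damaged.

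For 3 genes that the results turn on, the stretch before the start site is shown from RefSeq (build GRCm38.p6). AA465934 and Stfa2l1 were called in both tissues, and Ccng1 is a classical p53 target with a p53 site in its promoter. The AA465934 stretch is chr11:83291449-83291698 on the plus strand, the Stfa2l1 stretch chr16:36156561-36156810 on the plus strand, and the Ccng1 stretch chr11:40755310-40755536 on the minus strand. Capitals mark a p53 half-site (the 10-base element bound by a p53 dimer), searched on both strands.
AA465934: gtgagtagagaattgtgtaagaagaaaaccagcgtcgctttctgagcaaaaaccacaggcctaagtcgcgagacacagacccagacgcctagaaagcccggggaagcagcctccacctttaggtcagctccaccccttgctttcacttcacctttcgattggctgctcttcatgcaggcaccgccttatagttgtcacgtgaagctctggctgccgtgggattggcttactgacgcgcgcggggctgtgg
Stfa2l1: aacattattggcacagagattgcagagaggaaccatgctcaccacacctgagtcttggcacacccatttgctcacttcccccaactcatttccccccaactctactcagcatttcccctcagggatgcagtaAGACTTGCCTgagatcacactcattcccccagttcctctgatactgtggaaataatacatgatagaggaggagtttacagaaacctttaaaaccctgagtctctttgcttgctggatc
Ccng1: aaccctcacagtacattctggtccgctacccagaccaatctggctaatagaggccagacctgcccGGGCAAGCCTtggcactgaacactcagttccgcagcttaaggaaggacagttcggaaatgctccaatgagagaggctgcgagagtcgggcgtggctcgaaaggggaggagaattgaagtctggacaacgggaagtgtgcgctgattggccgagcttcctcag

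All 250 bases before each start site were searched. The Ccng1 stretch shown holds 227 of them and stops short of the start site at 40755286, from which its distance is counted. The half-site occurred once each in Ccng1 (185 bases before the start), Stfa2l1 (118 bases) and Xaf1 (140 bases), and not in AA465934, Fcgr3 or Mgmt. It occurred in 7.16% of the 27025 mouse promoters of that length. The interferon-stimulated response element (3.05% of promoters) and the STAT palindrome TTCNNNGAA (7.14%) occurred in none of these 6 genes. The AP-1 motif TGANTCA (6.85% of promoters) occurred in Xaf1 alone. These are matches of letters in a window.

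The libraries matched their tissue labels. Slc34a1, a proximal tubule phosphate carrier, lay between 656 and 1912 FPKM in kidney and at most at 1.25 in pancreas, and Ptf1a, a regulator of acinar cells, lay between 2.41 and 38.8 FPKM in pancreas and at most at 0.194 in kidney. Xist and Ddx3y, expressed in female and male mice, marked 5 i4F libraries as female (kidney 4 and 5, pancreas 3, 4 and 5) and all p53 KO libraries as male, so genotype and sex cannot be fully told apart. Clps, the acinar gene for colipase, exceeded 100 FPKM in 4 kidney libraries (i4F 5 and i4F p53 KO 2, 3 and 4). Acinar genes took 67.6 to 80.9% of all FPKM in i4F pancreas and 1.35 to 54.9% in pancreas p53 KO. Because FPKM are shares of a library, all values were therefore divided by a scale factor found within each tissue. The factors were 0.884 to 1.15 in kidney, 0.353 to 0.776 in i4F pancreas and 1.02 to 3.02 in pancreas p53 KO. Levels below are scaled FPKM, and effects are differences of log2(scaled FPKM + 1), which understate changes of genes near 1 FPKM. Levels were scaled in each tissue by itself and are not set against each other across tissues.

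The tissues differed in the reach of the p53 KO effect. In kidney 9 genes were higher and 5 lower in p53 KO (0.0690% and 0.0383% of the 13049 genes, limma, adjusted p under 0.05), while 1534 had an unadjusted p under 0.05. The kidney counts moved with the settings. They were 53 higher and 112 lower with effects from the 20-library fit, 118 and 107 with array weights, 23 and 35 with all 30 libraries, 17 and 10 without the 4 kidneys rich in Clps, and 4 and 3 in males alone. Without single libraries they ran from 4 to 27 higher and from 0 to 17 lower. The highest, 27 and 17, came without i4F p53 KO 5, and 16 and 14 came without i4F p53 KO 2. Fewer were called without i4F p53 KO 1 (5 and 1) or 4 (6 and 0), and without i4F 1 (5 and 4), 2 (4 and 1), 3 or 4 (4 and 0 each) or 5 (7 and 2). In pancreas 3953 were higher and 3703 lower (30.3% and 28.4%). The median absolute effect was 0.128 in kidney and 0.435 in pancreas, with median standard errors of 0.136 and 0.138. The difference between the tissues passed the test in 5281 genes. The kidney effect was above the pancreas effect in 2481 of these (19.0%) and below it in 2800 (21.5%). In 5027 of the 5281 the pancreas effect was the larger in size, and 5008 were also called in pancreas alone. The signs of both effects were opposite in 2452, and in 2782 they were the same with the greater size in pancreas, while 46 had the same sign with the larger effect in kidney. With FPKM as deposited, 190 genes lay above and 10805 below, since the median pancreas effect of all genes was then 1.43 (0.02 after scaling). All directions in pancreas are thus relative to the median gene.

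**Figure D1:**
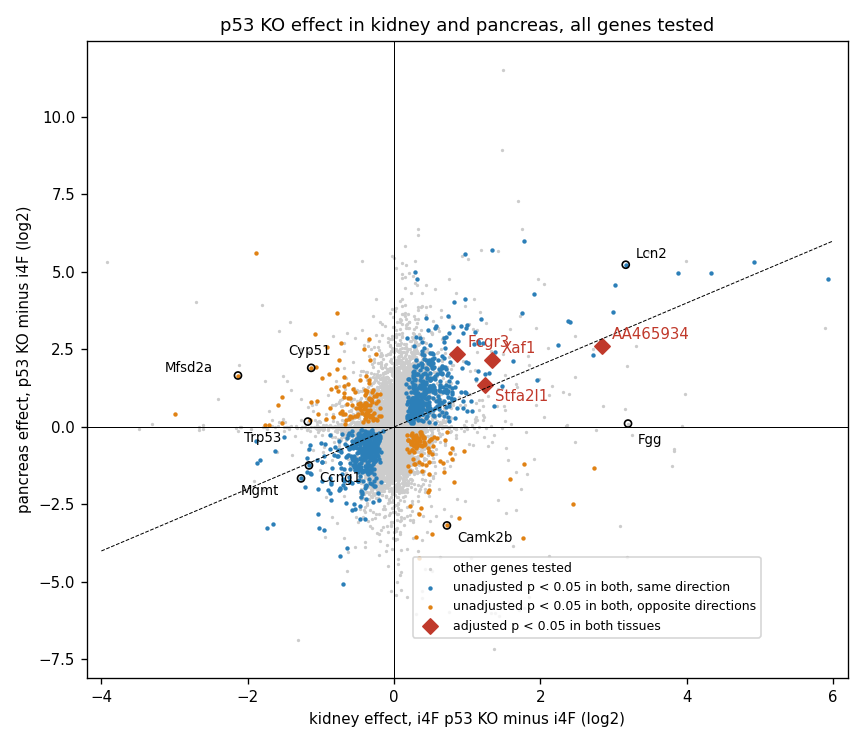
Kidney effect (x axis) against pancreas effect (y axis) of p53 KO, in log2 units, for the 13049 genes tested. Diamonds mark the 4 genes called in both tissues, blue and orange points the 797 genes and 211 genes with an unadjusted p under 0.05 in both tissues and the same or opposite signs; the dashed line marks equal effects, and most points spread along the pancreas axis.

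The targeted gene came first. Trp53 (chromosome 11, 69580348 to 69591873) measured 15.3, 16.6, 17.5, 18.6 and 14.6 scaled FPKM in kidney i4F and 8.79, 5.18, 5.38, 6.61 and 8.31 in kidney i4F p53 KO. In pancreas it measured 5.38, 4.65, 5.98, 9.0 and 5.66 in i4F and 5.43, 7.51, 6.61, 6.54 and 8.74 in the libraries labelled p53 KO. The kidney groups did not overlap and the pancreas groups did. The kidney effect was -1.18 (SE 0.14, adjusted p = 0.0158), the pancreas effect 0.17 (SE 0.16, adjusted p = 0.384) and their difference -1.35 (SE 0.22, adjusted p = 0.000166). The loss of Trp53 RNA was thus measured in kidney and not in the pancreas libraries labelled p53 KO, a limit on every statement about pancreas below. The kidney call was lost in males alone (adjusted p = 0.107), without the 4 kidneys rich in Clps (effect -0.91, adjusted p = 0.0764) and without i4F p53 KO 4 or i4F 2, 3 or 4 (adjusted p 0.0544 to 0.0808).

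The reprogramming factors were higher in p53 KO in both tissues by their values. Pou5f1 measured 0.156, 0, 0.0472, 4.95 and 1.19 scaled FPKM in kidney i4F and 13.6, 0.638, 3.82, 8.24 and 5.22 in kidney i4F p53 KO. The pancreas values were 0.656, 0, 1.65, 1.47 and 1.86 in i4F and 26.6, 38.4, 25.1, 24.2 and 14.4 in p53 KO. Kidney groups overlapped and pancreas groups did not. The Pou5f1 effect was 1.74 in kidney (SE 0.63, adjusted p = 0.335) and 3.69 in pancreas (SE 0.32, adjusted p = 1.57e-05), and the difference of -1.94 passed narrowly (SE 0.75, adjusted p = 0.0453). Differences were -1.55 for Sox2 (adjusted p = 0.022) and -0.98 for Klf4 (adjusted p = 0.0413), and 0.15 for Myc (adjusted p = 0.872), whose effects were 1.47 in kidney and 1.32 in pancreas. These 3 calls were lost in 17 (Pou5f1), 16 (Klf4) and 4 (Sox2) of 38 other settings. Without the Clps-rich kidneys the Pou5f1 difference was -1.15 and the Klf4 difference -0.56. The removal of pancreas p53 KO 1 or 2 ended all 3 calls, and those of Pou5f1 and Klf4 also ended without kidney i4F p53 KO 2, 3 or 5, kidney i4F 4 or 5, pancreas p53 KO 3 or pancreas i4F 1 or 2, as did Pou5f1 without pancreas p53 KO 4 and Klf4 without pancreas i4F 5. FPKM per gene do not separate the cassette from the mouse's own copies. Cdkn2a, which encodes the cell cycle inhibitors p16Ink4a and p19Arf, stayed below the filter and was not tested, with at most 0.256 scaled FPKM in kidney p53 KO and 0.488 to 5.03 in pancreas p53 KO.

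In both tissues 4 genes were called (0.0307% of those tested), all higher in p53 KO. No gene was called in opposite directions by limma, and 211 had opposite signs with an unadjusted p under 0.05 in both. They were AA465934, Xaf1, Fcgr3 and Stfa2l1, and in each of them every p53 KO library lay above every i4F library in both tissues. Of all genes tested, 0.552% showed that pattern upwards and 0.376% downwards. The number called higher in both ranged from 2 to 17 and lower in both from 0 to 5 when single libraries were left out. It was 86 higher and 48 lower with array weights, and 27 and 26 with effects from the 20-library fit.

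AA465934 is a long non-coding RNA on chromosome 11 (83291699 to 83294637). It measured 4.17, 2.36, 3.87, 2.77 and 3.77 scaled FPKM in kidney i4F and 23.7, 37.5, 16.7, 30.6 and 52.5 in kidney i4F p53 KO. Pancreas libraries of i4F gave 0, 0.622, 0.473, 1.13 and 0.332, and those of p53 KO gave 8.36, 7.73, 14.8, 4.56 and 6.96. The lowest p53 KO value was about 4 times the highest i4F value in each tissue. The kidney effect was 2.84 (SE 0.27, adjusted p = 0.0028) and the pancreas effect 2.61 (SE 0.27, adjusted p = 4.66e-05). Their difference was 0.23 (SE 0.40, 95% interval -0.60 to 1.06, adjusted p = 0.677), so that a difference of up to about 1 log2 unit was not detectable. AA465934 was the only named gene whose kidney and pancreas calls both held in all 37 other settings, with effects from 2.64 to 3.13 in kidney and from 2.36 to 4.10 in pancreas. Of the other 4 tested genes that start within 100 kb, none was called in kidney.

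Xaf1, which encodes a pro-apoptotic binding partner of XIAP and responds to interferon, lies on the same chromosome (72301461 to 72313733). It measured 1.42, 1.66, 1.47, 2.01 and 1.87 scaled FPKM in kidney i4F and 6.48, 6.22, 6.95, 5.05 and 4.48 in kidney i4F p53 KO. Its levels in pancreas were 0.472, 0.811, 0.674, 0.872 and 0.967 in i4F and 9.74, 8.48, 6.5, 4.43 and 6.08 in p53 KO. The ranges within groups were narrow beside the gap between them. The effect was 1.34 in kidney (SE 0.12, adjusted p = 0.00215) and 2.16 in pancreas (SE 0.18, adjusted p = 1.1e-05). The pancreas effect was the larger, with a difference of -0.82 (SE 0.22, adjusted p = 0.00558) that held in all 38 other settings. The kidney call was lost only without the Clps-rich kidneys (effect 1.28, adjusted p = 0.059).

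Fcgr3, an activating Fc receptor of macrophages, neutrophils and natural killer cells, measured 3.69, 3.38, 2.83, 3.99 and 2.92 scaled FPKM in kidney i4F and 7.45, 8.72, 6.00, 7.32 and 5.40 in kidney i4F p53 KO. In pancreas it measured 2.24, 3.31, 4.26, 11.3 and 6.48 in i4F and 37.1, 37.1, 23.8, 16.9 and 36.6 in p53 KO. The groups did not overlap, and library 4 was the highest of the pancreas controls. The effect was 0.86 in kidney (SE 0.13, adjusted p = 0.0431) and 2.36 in pancreas (SE 0.36, adjusted p = 0.000362), with a difference of -1.50 (SE 0.39, adjusted p = 0.00586). The kidney call was lost in 16 of 37 other settings, among them males alone (adjusted p = 0.151) and the removal of i4F p53 KO 1, 3 or 4 or of any i4F kidney (effects 0.816 to 0.912).

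Stfa2l1, a stefin-type protease inhibitor of the neutrophil list, was near the lower limit of the data. It measured 0.17, 0, 0, 0.311 and 0.475 scaled FPKM in kidney i4F and 1.95, 2.80, 1.26, 1.11 and 2.13 in kidney i4F p53 KO. It was listed at 0 in all 5 i4F pancreas libraries and measured 5.01, 1.55, 1.13, 0.447 and 1.36 in pancreas p53 KO, where library 1 stood apart. Only p53 KO libraries reached 1 FPKM, since kidney i4F held at most 0.501 FPKM. The filter thus took Stfa2l1 in for being high in p53 KO, and no support is drawn from its calls or from the lack of overlap. The effect was 1.24 in kidney (SE 0.18, adjusted p = 0.0396) and 1.36 in pancreas (SE 0.30, adjusted p = 0.00299), neither of which is a fold. The difference of -0.12 did not pass (SE 0.36, 95% interval -0.88 to 0.65, adjusted p = 0.825). The kidney call was lost in 9 of 36 other settings, among them males alone (adjusted p = 0.0861) and the removal of i4F p53 KO 1 or i4F 1, 2, 3 or 4 (effects 1.18 to 1.27).

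**Figure D2:**
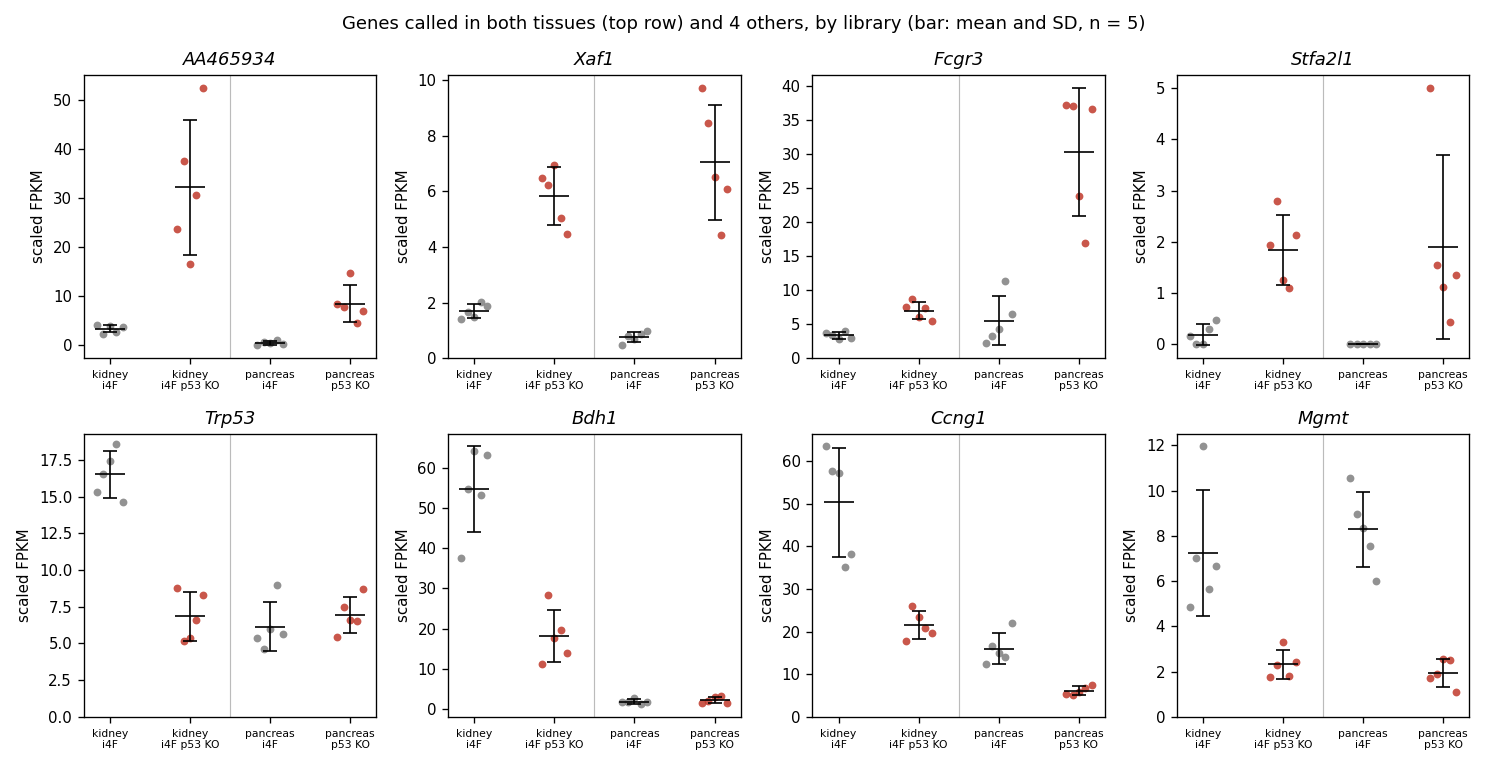
Scaled FPKM (y axis) in each library of the 4 groups (x axis) for the 4 genes called in both tissues (top row) and for Trp53, Bdh1, Ccng1 and Mgmt; points are libraries, and bars show the mean and SD of 5. In the top row the p53 KO points lie above the i4F points in both tissues, Trp53 and Bdh1 are lower in kidney p53 KO, and Ccng1 and Mgmt are lower in both.

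With an unadjusted p under 0.05 in both tissues, 418 genes were higher in both (3.20%), 379 lower in both (2.90%) and 211 moved in opposite directions (1.62%). The same sign was thus found in 79.1% of these 1008 genes, beside 61.1% of all genes tested and 72.3% of the 1534 kidney genes with an unadjusted p under 0.05. Across genes, which are not independent replicates, the kidney and pancreas effects had a Pearson correlation of 0.227 and a Spearman correlation of 0.306. The members named in the following paragraphs were partly chosen after their values had been seen.

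Genes of neutrophils and of the response to inflammation were among those with higher values in both tissues. S100a8, a subunit of calprotectin from neutrophils, measured 11.2, 11, 7.97, 13.0 and 8.13 scaled FPKM in kidney i4F and 79.8, 55.0, 36.2, 54.7 and 71.5 in kidney i4F p53 KO. The pancreas values were 2.96, 0.729, 1.65, 176 and 2.39 in i4F and 893, 65.2, 18.3, 16 and 72.6 in p53 KO. Library 4 of i4F and library 1 of p53 KO stood apart in pancreas. The kidney effect was 2.40 (SE 0.21, adjusted p = 0.00215), and the pancreas effect of 3.40 missed the threshold (SE 1.39, adjusted p = 0.0568). Its partner S100a9 (kidney 2.47, adjusted p = 0.0158; pancreas 2.94, adjusted p = 0.0872) and Retnlg (kidney 2.16, adjusted p = 0.0173; pancreas 1.34, adjusted p = 0.247) followed the same pattern, as did the serpin Serpina3g (kidney 0.77, adjusted p = 0.00832; pancreas 0.73, adjusted p = 0.205). The kidney call of S100a8 was lost with effects from the 20-library fit (adjusted p = 0.362). Its pancreas effect was called in 8 of 37 other settings, among them males alone (4.80, adjusted p = 0.0278) and the removal of pancreas i4F 4 (4.61, adjusted p = 0.00356) or pancreas p53 KO 4 (3.90, adjusted p = 0.0429). For Serpina3g the kidney call was lost in that fit (adjusted p = 0.398), with all 30 libraries (adjusted p = 0.0923) and without the Clps-rich kidneys (adjusted p = 0.0764), while its pancreas effect was called without pancreas i4F 4 (1.12, adjusted p = 0.0235), with array weights (1.31) and with FPKM as deposited (1.69). The calls of S100a9 and Retnlg in kidney were lost in males alone (adjusted p = 0.111 and 0.107). S100a9 lost its call without i4F p53 KO 1 or i4F 2, 3 or 4, and Retnlg without i4F p53 KO 1 or 4 or i4F 1, 2, 3 or 4. Of 16 tested neutrophil genes, 9 had an unadjusted p under 0.05 and higher values in both tissues, none opposite, beside 3.20% of all genes. These 9 include Clec4d and Stfa2l1, which reached 1 FPKM only in p53 KO libraries and so passed the filter for being high there. No support is drawn from these members, and whether others of the 9 depend on p53 KO libraries was not counted. The 6 called with the pancreas effect above the kidney effect (21.5% of all genes were) included Clec4d and Clec4e, which passed the filter on low values only through pancreas p53 KO. The 22 neutrophil genes in both tables summed to 21.1 to 75.7 scaled FPKM in kidney i4F, 90.5 to 639 in kidney i4F p53 KO, 9.62 to 374 in pancreas i4F and 197 to 2226 in pancreas p53 KO. In such tissue samples, more cells of a type and more RNA per cell cannot be told apart.

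Lcn2, an iron-sequestering protein of neutrophils and damaged tubules, measured 7.68, 5.81, 2.60, 17.4 and 23.5 scaled FPKM in kidney i4F and 486, 28.6, 16.7, 249.5 and 85.9 in kidney i4F p53 KO. Pancreas libraries of i4F gave 3.30, 2.46, 3.54, 9.50 and 9.31, and those of p53 KO gave 493, 304, 201, 147 and 121. Kidney groups overlapped in 1 library of p53 KO, number 3. The effect was 3.17 in kidney (SE 0.90, adjusted p = 0.231) and 5.23 in pancreas (SE 0.44, adjusted p = 1.33e-05). Other acute phase and signalling genes rose in pancreas with kidney values in the same direction that did not pass: Saa3, a serum amyloid (3.01 in kidney, 4.59 in pancreas), Lrg1, a secreted glycoprotein (2.24 and 2.63), and Socs3, the feedback inhibitor of STAT3 signalling (1.63 and 2.12). In the interleukin-6 family list 11 of 30 tested genes had an unadjusted p under 0.05 and higher values in both tissues (3.20% of all genes did). The kidney median of that list was 0.64 and the pancreas median 0.83, beside 0.00 and 0.02 for all genes tested. Junb, an AP-1 subunit of that list, was higher in pancreas by 1.96 more than in kidney (difference -1.96, adjusted p = 7.81e-05). In the kidney injury list all 39 genes had kidney effects above 0, with a median of 0.92, and none was called in kidney. Of all 13049 genes 6659 had kidney effects above 0. In pancreas 29 of the 39 were called higher, beside 30.3% of all genes, and the metallothionein Mt2 had opposite signs at an unadjusted p under 0.05 in both tissues.

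Genes for energy metabolism were looked at next. All 44 tested oxidative phosphorylation genes had effects below 0 in kidney (-0.45 to -0.19) and in pancreas (-1.98 to -0.16), with medians of -0.32 and -0.84. In pancreas 39 of them were called lower (28.4% of all genes were), in kidney none, and 10 had an unadjusted p under 0.05 in both (2.90%). Ndufa1, a subunit of complex I, was called lower in pancreas and not in kidney (difference 1.68, SE 0.38, adjusted p = 0.0023). With FPKM as deposited the pancreas median of this list was 1.17, below the 1.43 of all genes, and the Ndufa1 difference turned to -0.30. Among 31 fatty acid oxidation genes 7 lay lower in both at an unadjusted p under 0.05, and the medians were -0.40 in kidney and -0.51 in pancreas (1.2 in pancreas with FPKM as deposited). In pancreas 3 of the 31 were called higher and 17 lower. Signs were opposite in 7, and in Acadl, an acyl-CoA dehydrogenase, they were so at an unadjusted p under 0.05 in both. Egf, which is made by the distal tubule of the kidney, had effects of -1.66 in kidney (SE 0.52, adjusted p = 0.273) and -3.12 in pancreas (SE 0.37, adjusted p = 9.66e-05).

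The p53 targets did not move as a block. Of 45 tested, 9 were called with the kidney effect above the pancreas effect and 12 with it below, beside 19.0% and 21.5% of all genes. The list median was -0.02 in kidney and -0.04 in pancreas. At an unadjusted p under 0.05, 7 targets were lower in both tissues (2.90% of all genes were), 1 was higher in both (Pmaip1, a BH3-only death gene) and none was opposite. The 7 were Ccng1, Zmat3, Ei24, Plk2, Ephx1, Mgmt and Slc19a2.

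Ccng1, the gene of cyclin G1, measured 63.5, 57.6, 57.2, 35.1 and 38.2 scaled FPKM in kidney i4F and 17.7, 25.9, 23.4, 20.9 and 19.6 in kidney i4F p53 KO. Its levels in pancreas were 12.4, 16.6, 14.9, 14.1 and 21.9 in i4F and 5.40, 5.07, 5.83, 6.77 and 7.51 in p53 KO. The groups did not overlap in either tissue, and both female kidneys (i4F 4 and 5) were the lowest of the kidney controls. The effect was -1.16 in kidney, just short of the threshold (SE 0.18, adjusted p = 0.0523), and -1.24 in pancreas (SE 0.15, adjusted p = 0.000125). The difference was 0.08 (SE 0.24, 95% interval -0.43 to 0.59, adjusted p = 0.83). In males alone the kidney effect of Ccng1 was -1.43 (adjusted p = 0.0261). With FPKM as deposited the pancreas effect of Ccng1 was 0.61 (adjusted p = 0.112), below the median gene but above 0.

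Mgmt, which removes alkyl groups from guanine in DNA, measured 4.86, 7.04, 12, 5.67 and 6.66 scaled FPKM in kidney i4F and 1.77, 2.31, 3.33, 1.79 and 2.44 in kidney i4F p53 KO. In pancreas it measured 10.5, 8.96, 8.36, 7.55 and 6.01 in i4F and 1.71, 1.90, 2.57, 2.54 and 1.08 in p53 KO. The groups did not overlap in either tissue. The effect was -1.27 in kidney (SE 0.21, adjusted p = 0.0621) and -1.66 in pancreas (SE 0.18, adjusted p = 5.19e-05), with a difference of 0.39 (SE 0.28, 95% interval -0.20 to 0.98, adjusted p = 0.284). The pancreas effect of Mgmt was -0.06 with FPKM as deposited (adjusted p = 0.831).

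Other targets differed between the tissues. The p53 target Tigar (listed as 9630033F20Rik), which lowers glycolytic flux, had a difference of -1.41 (SE 0.14, adjusted p = 1.83e-06), the ephrin receptor Epha2 one of -2.91 (adjusted p = 2.65e-05) and the decoy death receptor Tnfrsf23 one of -2.57 (adjusted p = 0.000128). All 3 were higher in pancreas p53 KO and had kidney effects between -0.03 and 0.30. Sesn1, an inhibitor of TORC1 signalling, had a difference of 1.71 (adjusted p = 0.000513) and Ephx1, an epoxide hydrolase, one of 1.27 (adjusted p = 0.00106). Without scaling both differences lay below 0 (-0.06 for Sesn1 and -0.49 for Ephx1). Cdkn1a, the gene of p21 and the main arrest effector of p53, was not called in either tissue. Its effect was -0.05 in kidney (SE 0.48) and 0.81 in pancreas (SE 0.60), and the difference of -0.86 had an adjusted p of 0.415. Its 2 highest kidney i4F values, 15 and 9.84, were those of the female mice, and in males alone the kidney effect was 0.55.

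Positions were then set beside the shared effects. Of the 4 genes called in both tissues, AA465934 lies 13.7 Mb and Xaf1 2.72 Mb beyond Trp53 on chromosome 11, and Fcgr3 and Stfa2l1 lie on chromosomes 1 and 16. Within 15 Mb of Trp53, 36 of 386 tested genes (9.33%) had an unadjusted p under 0.05 and the same sign in both tissues. The share was 7.33% of 709 genes on the rest of chromosome 11 and 5.93% of 11846 genes on all other chromosomes. Chromosome 3 had 8.12% and chromosome 11 as a whole 8.03%. In kidney 16.8% of the genes within the window had an unadjusted p under 0.05, beside 11.6% on other chromosomes. The width of the window was chosen after the positions had been seen.

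**Figure D3:**
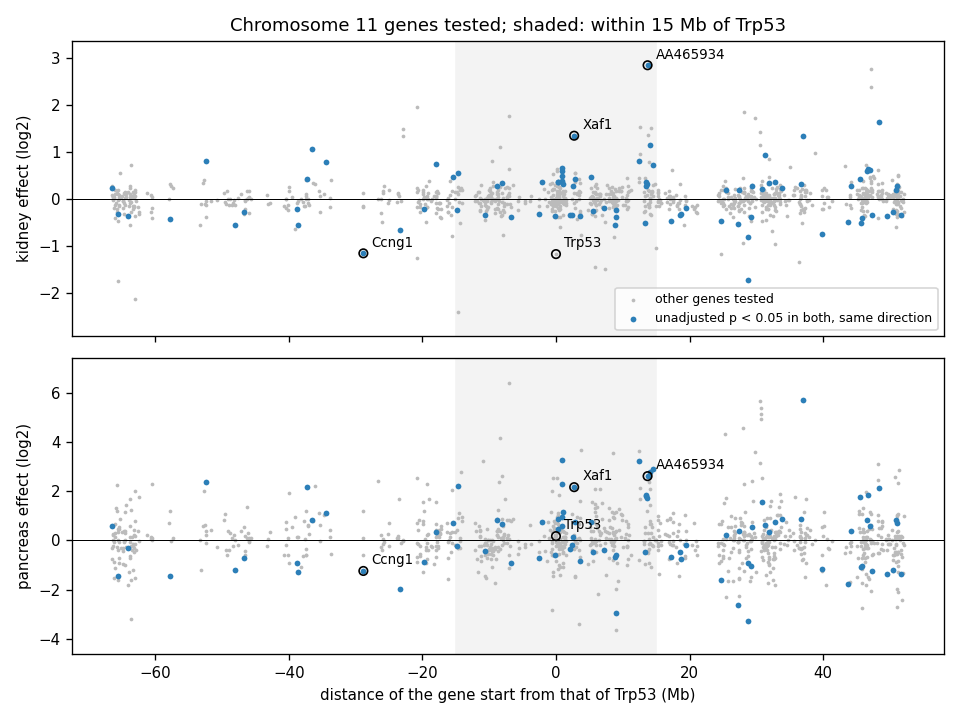
Kidney effect (upper panel) and pancreas effect (lower panel) in log2 units against the distance in Mb of each gene start from that of Trp53, for the tested genes of chromosome 11. Blue points are genes with an unadjusted p under 0.05 and the same sign in both tissues; 36 of the 386 genes in the shaded 15 Mb on either side are blue, and AA465934 and Xaf1 are the highest of them in kidney.

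No gene was called in opposite directions, and the 211 genes opposite at an unadjusted p under 0.05 held 96 with higher kidney and 115 with lower kidney values. Sterol synthesis stood among these, a list of 25 genes drawn up after their values had been seen. Cyp51, the sterol demethylase of the pathway, measured 33.3, 56.8, 57.8, 57.4 and 68.6 scaled FPKM in kidney i4F and 21.9, 69.1, 19.2, 24.1 and 10.5 in kidney i4F p53 KO. The pancreas values were 1.23, 1.49, 1.47, 1.83 and 2.07 in i4F and 7.79, 10.5, 9.36, 5.03 and 12.9 in p53 KO. Kidney groups overlapped, with library 2 of p53 KO above every control, and pancreas groups did not. The Cyp51 effect was -1.13 in kidney (SE 0.41, adjusted p = 0.328) and 1.91 in pancreas (SE 0.20, adjusted p = 5.19e-05), and the difference of -3.04 (SE 0.47, adjusted p = 0.000116) held in all 38 other settings. Of the 25 sterol genes, 14 were called with the pancreas effect above the kidney effect (21.5% of all genes were) and none the other way. The pancreas median was 0.93 and the kidney median 0.04, and 12 of the 25 had kidney effects below 0.

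Mfsd2a, a carrier of lysophospholipids with omega-3 fatty acids, had effects of -2.13 in kidney (adjusted p = 0.126) and 1.66 in pancreas (adjusted p = 7.86e-06), with no overlap of groups in either tissue and a difference of -3.79 (SE 0.50, adjusted p = 2.97e-05). Nccrp1, an F-box-like protein of squamous epithelia, had -1.89 in kidney (adjusted p = 0.236) and 5.62 in pancreas (adjusted p = 1.1e-05), a difference of -7.51 (SE 0.75, adjusted p = 1.48e-06). Ckb, brain-type creatine kinase, had -0.75 and 2.16, a difference of -2.90 (SE 0.29, adjusted p = 1.28e-06). Camk2b, a calcium and calmodulin dependent kinase, ran the other way. It measured 0.797, 0.824, 0.74, 0.532 and 0.619 scaled FPKM in kidney i4F and 1.74, 1.2, 1.69, 1.97 and 2.59 in kidney i4F p53 KO. Pancreas libraries of i4F gave 22.5, 23.0, 17.9, 13.2 and 22.5, and those of p53 KO gave 0.767, 0.705, 1.84, 3.02 and 0.704. Camk2b groups overlapped in neither tissue. Its effect was 0.72 in kidney (SE 0.12, adjusted p = 0.0721) and -3.18 in pancreas (SE 0.26, adjusted p = 1.18e-05), and the difference was 3.90 (SE 0.30, adjusted p = 9.97e-08).

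Many called differences belonged to genes that rose in pancreas and were not called in kidney. Of the genes tested, 151 reached 1 FPKM in no group but pancreas p53 KO, and 134 of these had a called difference. The filter took these genes in for being high there, so no support is drawn from their calls. Others, such as Krt14, Krt16, Sprr2b, Anln, Tpx2, Tnfrsf23 and Msr1, reached 1 FPKM in too few other libraries to pass without that group. They are not among the 151, and their calls carry the same limit. The list counts include such genes. Keratin 14 (Krt14), an intermediate filament of basal squamous cells, measured at most 0.624 scaled FPKM in kidney i4F and 0.348, 0, 0, 2.24 and 0.76 in kidney i4F p53 KO. Its levels in pancreas were at most 0.596 in i4F and 27.7, 59.4, 51.6, 29.9 and 86.3 in p53 KO. The Krt14 difference was -5.06 (SE 0.44, adjusted p = 3.53e-07). Krt16 (-5.11, adjusted p = 5.71e-07), the cornified envelope gene Sprr2b (-6.05, adjusted p = 1.23e-05) and Ly6g6c, a surface protein (-5.88, adjusted p = 1.23e-05), belong to the same kind of epithelium or lay with it among the largest differences. Of 22 tested genes of stratified epithelium, 15 were called with the pancreas effect above the kidney effect (21.5% of all genes were). Among these 15, 2 reached 1 FPKM only in pancreas p53 KO, and Krt14 and Krt16 would not pass the filter without it. How many others of the 15 depend on that group was not counted. In the other direction 1 was called (Krt23, 1.28, and -0.34 with FPKM as deposited). The list medians were 0.27 in kidney and 2.42 in pancreas.

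Cell division genes rose in pancreas and were not called in kidney. Anln, the contractile ring protein anillin, measured 0.437, 0.21, 0.164, 1.99 and 0.514 scaled FPKM in kidney i4F and 1.27, 0.334, 0.439, 1.58 and 1.08 in kidney i4F p53 KO. In pancreas it measured 0.147, 0.17, 0.175, 0.296 and 0.21 in i4F and 13.7, 14.4, 9.98, 5.51 and 7.79 in p53 KO. The highest kidney control, library 4, exceeded every kidney p53 KO library. The Anln difference was -2.89 (SE 0.37, adjusted p = 1.97e-05). All 28 tested mitosis genes were called with the pancreas effect above the kidney effect (21.5% of all genes were), from -2.89 to -0.87, with medians of 0.23 in kidney and 2.02 in pancreas. Bub1, Kif2c, Ndc80 and Ttk, 4 of the 28, reached 1 FPKM only in pancreas p53 KO. Without these 4 genes 24 of 24 were called, with medians of 0.24 and 2.17. Cenpa, the centromeric histone (-2.54, adjusted p = 1.72e-05), and Tpx2, a spindle assembly factor (-1.90, adjusted p = 5.42e-05), were among the 24. Of those 24, Anln and Tpx2 also would not pass the filter without pancreas p53 KO. How many of the others depend on that group was not counted, so the count and the medians of the 24 carry the same limit. In DNA replication 21 of 34 genes were called in that direction and none in the other. They include Mcm6, a subunit of the replicative helicase (-2.21, adjusted p = 0.000107).

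Stroma and macrophages followed. Of 32 fibroblast and matrix genes, 22 were called with the pancreas effect above the kidney effect (21.5% of all genes were) and none the other way, with medians of 0.20 in kidney and 2.21 in pancreas. Postn, periostin (-3.50, adjusted p = 5.42e-05), and Tnc, tenascin C (-3.98, adjusted p = 0.000105), are matrix proteins of this list. Of 30 macrophage genes 20 were called in that direction, beside the same share of all genes, and 1 in the other, H2-Ab1, an antigen-presenting protein (1.59, adjusted p = 0.0372, a call lost in 15 of 38 other settings). The H2-Ab1 call ended without kidney i4F p53 KO 1, 3 or 4, kidney i4F 2, 3, 4 or 5, pancreas p53 KO 2 or 5 or pancreas i4F 5, and its difference was -0.33 with FPKM as deposited. Msr1, a scavenger receptor, had a difference of -1.56 (adjusted p = 0.000708). Csf1r, the receptor that macrophages need to survive, had one of -2.0 (SE 0.41, adjusted p = 0.00109), with -0.62 in kidney and 1.38 in pancreas. Csf1r was the only macrophage gene with opposite signs at an unadjusted p under 0.05 in both tissues. At that threshold 10 of the 30 were higher in both (3.20% of all genes were). Kidney effects lay above 0 in 26 of the 30, and none was called in kidney. The list medians were 0.399 in kidney and 1.765 in pancreas. The 30 genes summed to 754 to 849.5 scaled FPKM in kidney i4F and 459 to 1333 in kidney i4F p53 KO, and to 334 to 1909 in pancreas i4F and 1017 to 1751 in pancreas p53 KO. Their part in the other results was not tested.

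Secreted and interferon-related genes were mixed. Plaur, the urokinase receptor, had a difference of -3.89 (SE 0.57, adjusted p = 6.82e-05). Of the 19 tested genes of the senescence secretory list 11 were called with the pancreas effect above the kidney effect. Among these 11, 1 reached 1 FPKM only in pancreas p53 KO. In the other direction 2 were called, and 6 were not called. Of 31 interferon response genes 18 were not called and 12 were called with the pancreas effect above the kidney effect (21.5% of all genes were), among them Oasl1 (-1.82, adjusted p = 3.71e-05), and 1 the other way (Ifi27l1, 1.90, adjusted p = 0.00514, and -0.08 with FPKM as deposited). Of the 31, 7 had an unadjusted p under 0.05 and higher values in both tissues (3.20% of all genes did), Xaf1 included.

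**Figure D4:**
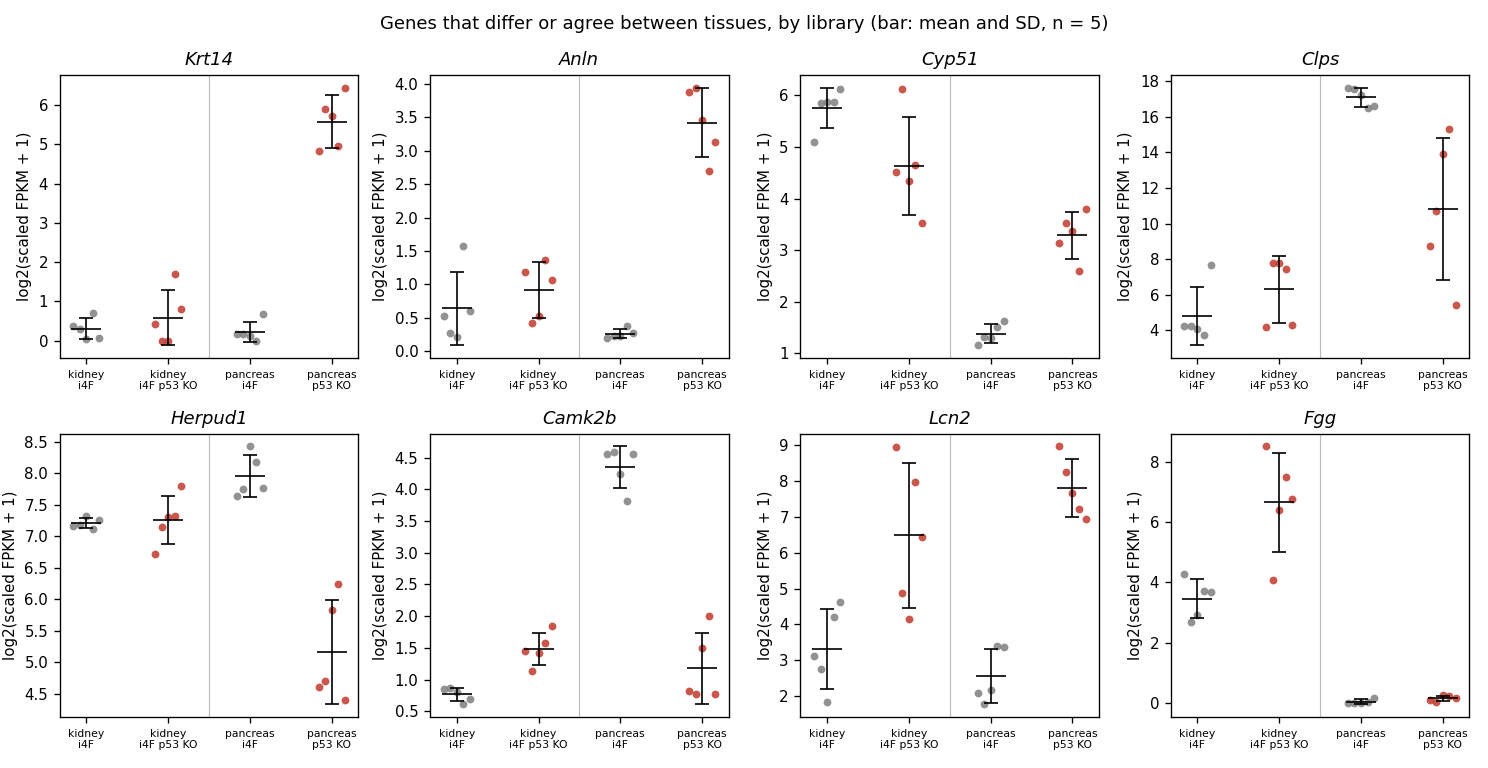
Levels as log2(scaled FPKM + 1) (y axis, own scale in each panel) in each library of the 4 groups (x axis) for 8 genes; points are libraries, and bars show the mean and SD of 5. Krt14 and Anln are high and Clps and Herpud1 low in pancreas p53 KO, the means of Cyp51 and Camk2b run in opposite directions by tissue, Lcn2 is high in p53 KO of both, and Fgg is highest in kidney p53 KO.

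The largest differences in the other direction belonged to acinar enzymes, which fell in pancreas. Clps measured 18.1, 18, 15.7, 12.3 and 205 scaled FPKM in kidney i4F and 17.3, 216, 216, 177 and 18.7 in kidney i4F p53 KO. In pancreas the deposited values were 60495 to 78363 FPKM in i4F and 121 to 41699.6 in p53 KO. The Clps difference was 7.78 (SE 1.95, adjusted p = 0.00431), with a kidney part of 1.5 that did not pass (adjusted p = 0.57). Ctrl, chymotrypsin-like protease (8.54, adjusted p = 0.00368), and Cel, bile salt lipase (7.53, adjusted p = 0.0023), were close to it. Of 41 acinar genes 31 were called with the kidney effect above the pancreas effect (19.0% of all genes were). The 2 called below it, Cela2a and Pnlip, are listed at 0 in i4F pancreas libraries where other enzymes are abundant, and no change was read from them. The acinar list had a median of -4.19 in pancreas and 0.89 in kidney, and 0.13 in kidney without the 4 kidneys rich in Clps. The acinar regulators Bhlha15 (4.32, adjusted p = 0.000547) and Rbpjl (4.05, adjusted p = 0.000261), which were near 0 in kidney, showed the same direction as the enzymes.

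Genes of the secretory pathway went with the enzymes. Herpud1, a component of endoplasmic reticulum associated degradation, measured 143, 144, 159, 138 and 153 scaled FPKM in kidney i4F and 105, 140.6, 157, 159 and 221 in kidney i4F p53 KO. The pancreas values were 199.6, 214, 343, 289 and 218 in i4F and 23.4, 25.1, 56.0, 74.8 and 20.2 in p53 KO. Only the pancreas groups were separate. The Herpud1 difference was 2.84 (SE 0.41, adjusted p = 6.35e-05), and that of its partner Sel1l 3.12 (adjusted p = 0.000204). Of 29 genes of the unfolded protein response 22 were called in this direction and 1 in the other (Pdia3, a disulfide isomerase, -0.94, adjusted p = 0.00856). Their medians were 0.05 in kidney and -1.33 in pancreas, and with FPKM as deposited the pancreas median was 0.61 and the median difference -0.44. The 38 tested genes of the cytosolic ribosome were all called in this direction (19.0% of all genes were), between 0.70 and 1.66, among them Rpl32 (1.66, adjusted p = 0.000751) and Rpl5 (1.28, adjusted p = 0.000373). For the ribosome the direction rests on the scaling. With FPKM as deposited the pancreas median of the list was 1.06 and the median difference -0.89, so that these genes rose less than the median gene of 1.43. Of 18 islet genes 12 were called in this direction and 1 in the other. Among the 12 was Nkx2-2, a regulator of islet cells (1.43, adjusted p = 0.000534), which stayed at or below 0.0424 scaled FPKM in kidney.

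**Figure D5:**
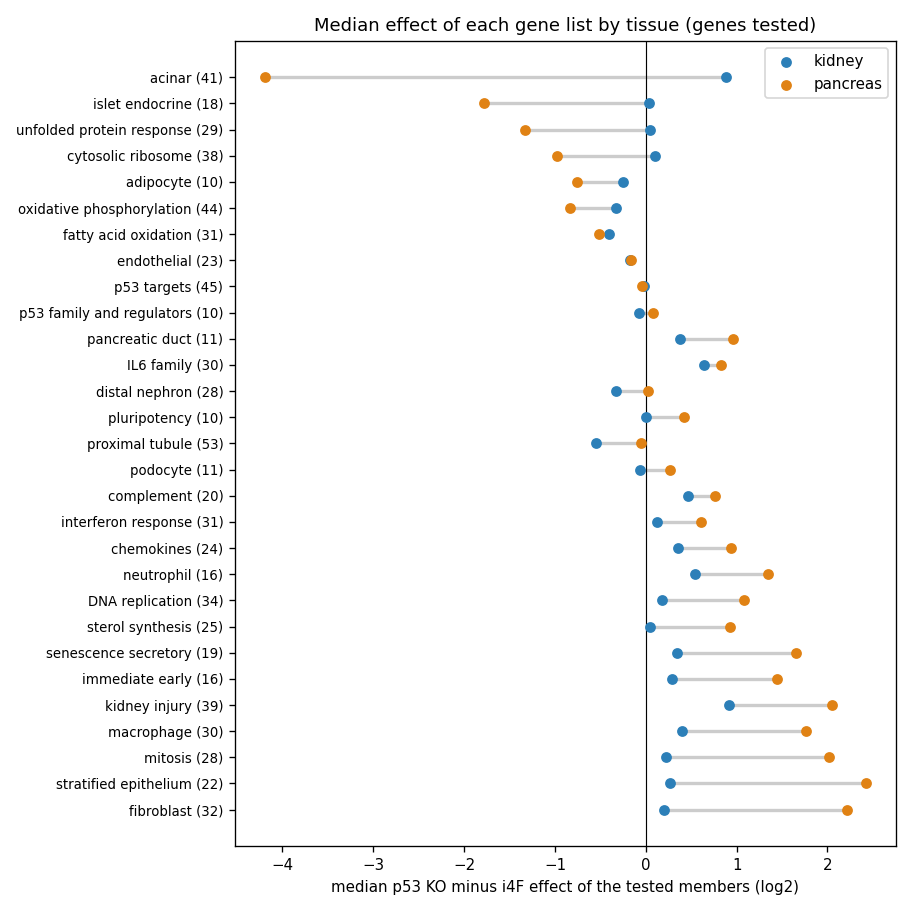
Median effect of p53 KO in log2 units (x axis) in kidney (blue) and pancreas (orange) for each gene list with at least 10 tested genes (y axis, number tested in brackets), ordered by the median difference between the tissues. The lines join the tissues: kidney medians lie between -0.55 and 0.92 and pancreas medians between -4.19 and 2.42.

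A smaller set of differences came from kidney. Bdh1, which makes and uses ketone bodies, measured 37.6, 54.8, 64.3, 53.4 and 63.2 scaled FPKM in kidney i4F and 11.3, 28.4, 17.7, 19.6 and 13.8 in kidney i4F p53 KO. Pancreas libraries of i4F gave 1.64, 1.71, 2.82, 1.25 and 1.73, and those of p53 KO gave 1.57, 1.88, 3.0, 3.27 and 1.40. Kidney groups did not overlap and pancreas groups did. The Bdh1 effect was -1.58 in kidney (SE 0.23, adjusted p = 0.0427) and 0.17 in pancreas (SE 0.19, adjusted p = 0.471), with a difference of -1.75 (SE 0.31, adjusted p = 0.000343) that held in all 38 other settings. Its kidney call was lost in males alone (adjusted p = 0.183) and without i4F p53 KO 1, 3 or 4 or i4F 2, 3, 4 or 5.

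The vitamin carrier Slc5a6 (kidney -0.90, adjusted p = 0.0327) had a difference of -0.84 (adjusted p = 0.000322), and the proton pump subunit Atp6v0e2 (kidney -0.62, adjusted p = 0.041) one of -0.86 (adjusted p = 0.00015). Bspry, a regulator of calcium transport, was higher in kidney p53 KO (1.13, adjusted p = 0.047) with a difference of 0.92 (adjusted p = 0.013). The kidney calls of all 3 were lost in males alone and without the Clps-rich kidneys. They were also lost without single libraries: Slc5a6 without i4F p53 KO 1, 3 or 4 or i4F 3 or 4, Atp6v0e2 without i4F p53 KO 1, 2 or 4 or any i4F kidney, and Bspry without any kidney library but i4F p53 KO 2. The Bspry difference was -0.91 with FPKM as deposited. Of the 14 genes called in kidney, 11 had the same sign in pancreas and 7 had a called difference.

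The fibrinogen gene Fgg, expressed by injured tubules, measured 18.3, 5.42, 6.63, 12.1 and 11.7 scaled FPKM in kidney i4F and 361, 16, 83.8, 179.6 and 107 in kidney i4F p53 KO. It stayed at or below 0.198 in all 10 pancreas libraries. Of the p53 KO kidneys only library 2 lay within the control range. The Fgg effect was 3.20 in kidney (SE 0.69, adjusted p = 0.128) and 0.11 in pancreas, and the difference of 3.09 passed (SE 0.74, adjusted p = 0.00297) and held in all 38 other settings. Fga, at or below 0.12 scaled FPKM in every pancreas library, had a difference of 2.29 (adjusted p = 0.00752). The complement gene C3 had one of 2.60 (SE 0.81, adjusted p = 0.0166), with 3.16 in kidney (adjusted p = 0.0621). The C3 call was lost with FPKM as deposited (0.67) and in males alone (2.25, adjusted p = 0.0509), as was the Fga call in males alone (adjusted p = 0.0626). Slc22a7, an organic anion carrier of the proximal tubule, lay lower in p53 KO kidney, with a mean of 17.1 ± 17.1 beside 144 ± 75.1 scaled FPKM in i4F (SD, n = 5). Its difference was -3.43 (SE 0.73, adjusted p = 0.00136), and the kidney effect of -3.48 had an adjusted p of 0.101. In pancreas Slc22a7 stayed at or below 0.394 scaled FPKM, so its difference is nearly the kidney effect alone. Of 53 proximal tubule genes 45 had kidney effects below 0, with a median of -0.55, and none was called in kidney. Of all 13049 genes 6389 had kidney effects below 0. The proximal tubule list includes Cyp51, which was also given above as a sterol gene.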

How the data were processed

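Gene levels in kidney and pancreas were deposited by the authors as FPKM, 1 table per tissue. The submitters' processing notes list Cufflinks 2.2.1, SAMtools 0.1.19, Bowtie 1.0.0, TopHat2 2.0.10 and FastQC, with the build mm10 and without roles; any scaling between libraries is not given in the sources used here. Per the labels, libraries were stranded poly(A) preparations of RNA with integrity numbers from 7.4 to 9.4, and the mapped reads of each sample are given only as a minimum. Depth per gene is unknown, so no interval from counts is given. The tables were joined on gene name (18891 names in both, 29 left out for repeated rows). Values were divided by median-of-ratios factors within each tissue and analysed as log2(scaled FPKM + 1), pseudocount 1, in limma 3.58.1 under R 4.3.3, using lmFit, contrasts.fit and a trended eBayes. The tissue difference came from 1 fit of 20 libraries, each tissue's effect from its own 10. Tests were two-sided with Benjamini-Hochberg adjustment over 13049 genes and a threshold of 0.05. The procedure was tested on simulated data.

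Per the labels 5 mice of each strain were treated, and each group holds 5 libraries; where libraries are not separate mice, p-values measure only the spread between libraries. Same-numbered libraries deviated from their group means with correlations of -0.0699 to 0.283 (kidney genotypes), -0.321 to 0.112 (pancreas genotypes), -0.0564 to 0.165 (tissues of i4F) and -0.0575 to 0.125 (tissues of p53 KO), and number 3 of i4F differs in sex between the tissues, so the numbers were not used as pairs. The libraries of i4F Ink4a/Arf KO entered only as an alternative with all 30 libraries.

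Comparisons, gene lists and members were chosen with earlier results of these data known. Lists came from textbook knowledge, the sterol list after its values were seen, and are described by counts and medians with no test. Genes named by rule were Trp53, Cdkn2a, Cdkn1a and the 4 factors, the genes called in both tissues, the 8 largest differences in each direction among called genes with a group mean of at least 5 scaled FPKM and no library listed at 0 beside 10 FPKM or more, and, from every list, the members called with the lowest p, at most 4; not all of these are printed. Other genes were named after their values had been seen: the other genes called in kidney, Ccng1, Mgmt, Lcn2, Saa3, Lrg1, Socs3, Egf, Mfsd2a, Ckb, Camk2b, C3, Fga and single list members against the trend (Krt23, H2-Ab1, Ifi27l1, Pdia3, Sesn1, Ephx1). Positions, promoters and the motif search use RefSeq for GRCm38.p6, the assembly known as mm10; 12942 tested genes had a position. Alternatives concerned scaling, pseudocount, filter, variance model, sex, replicate numbers and left-out libraries. Some named items are not reported here.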

Additional observations from a re-analysis of the deposited data

Results flagged for a closer look

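Among 71 groups of 5 libraries looked at for 18 genes, 9 held a library far from the rest. Chance gives about 1 in 20 groups where values are normally distributed. The values looked at were not logged, and their own chance share was not checked. In scaled FPKM these were Stfa2l1 in pancreas p53 KO 1 (5.01), Pou5f1 in kidney i4F 4 (4.95), S100a8 in pancreas i4F 4 (175.6) and in pancreas p53 KO 1 (893), Fgg in pancreas i4F 5 (0.13), Cyp51 in kidney i4F p53 KO 2 (69.1), Clps in kidney i4F 5 (204.8), Krt14 in pancreas i4F 5 (0.60) and Anln in kidney i4F 4 (1.99). Each was the highest of its group, and what sets these libraries apart was not tested.

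By the test of the difference itself (limma, adjusted p under 0.05), the p53 KO effect differed between the tissues in 2481 genes with the kidney effect above the pancreas effect and in 2800 with it below. Among named genes, kidney effects lay below pancreas effects, in log2 units, for Xaf1 (-0.82), Fcgr3 (-1.50), Trp53 (-1.35), Pou5f1 (-1.94), Sox2 (-1.55), Klf4 (-0.98), Bdh1 (-1.75), Slc5a6 (-0.84), Atp6v0e2 (-0.86), Slc22a7 (-3.43), Cyp51 (-3.04), Nccrp1 (-7.51), Mfsd2a (-3.79), Ckb (-2.90), Sprr2b (-6.05), Ly6g6c (-5.88), Krt14 (-5.06), Krt16 (-5.11), Anln (-2.89), Postn (-3.50), Tnc (-3.98), Msr1 (-1.56), Csf1r (-2.0), Cenpa (-2.54), Tpx2 (-1.90), Mcm6 (-2.21), Epha2 (-2.91), Tnfrsf23 (-2.57), 9630033F20Rik (-1.41), Plaur (-3.89), Oasl1 (-1.82), Junb (-1.96) and Pdia3 (-0.94). Kidney effects lay above pancreas effects for Bspry (0.92), Fgg (3.09), C3 (2.60), Fga (2.29), Camk2b (3.90), Clps (7.78), Ctrl (8.54), Cel (7.53), Herpud1 (2.84), Rpl5 (1.28), Rpl32 (1.66), Sel1l (3.12), Bhlha15 (4.32), Rbpjl (4.05), Nkx2-2 (1.43), Ndufa1 (1.68), H2-Ab1 (1.59), Krt23 (1.28), Ifi27l1 (1.90), Sesn1 (1.71) and Ephx1 (1.27).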

How the results depend on the processing

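Of 54 named genes with a called tissue difference, 40 kept the call in every alternative run. Without scaling, 190 genes lay above and 10805 below. Leaving out single libraries gave 2048 to 2721 above and 2211 to 3063 below. Genes called higher in both tissues (4) numbered 8 with FPKM as deposited, 2 with no filter, 86 with array weights, 27 with effects from the 20-library fit, 10 with all 30 libraries, 9 without the Clps-rich kidneys and 2 to 17 without single libraries. Genes called lower in both (0) numbered 2 with upper-quartile scaling, 3 with quantile normalization, 1 with a filter of 5 FPKM, 48 with array weights, 26 from the 20-library fit, 17 with 30 libraries, 4 with Xist as covariate, 2 in males alone, 1 without genes listed at 0 and 0 to 5 without single libraries. Opposite genes (0) numbered 3 with FPKM as deposited, 1 with upper-quartile scaling, 27 with array weights, 10 from the 20-library fit, 5 with 30 libraries, 1 with Xist, 3 without the Clps-rich kidneys, 1 in males alone and 0 to 4 without single libraries. At an unadjusted p under 0.05, opposite genes (211) numbered 514 with FPKM as deposited, 502 with array weights, 334 without the Clps-rich kidneys and 136 to 278 without single libraries. Concordant ones (797) numbered 1995 with array weights, 1351 with Xist and 512 to 1266 without single libraries. The causes were not tested.

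The replicate block across tissues gave 2481 above and 2796 below. Blocks within tissues gave 2116 and 2523, with 4 genes lower in both and 1 opposite. The numbers were not shown to pair libraries.

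Some values changed sign. With FPKM as deposited the tissue difference was -0.90 for AA465934, -1.73 for Myc, -0.91 for Bspry, -1.74 for Ccng1, -1.19 for Mgmt, -0.72 for Rpl5, -0.35 for Rpl32, -0.30 for Ndufa1, -0.33 for H2-Ab1, -0.34 for Krt23, -0.0803 for Ifi27l1, -0.0586 for Sesn1 and -0.49 for Ephx1, and the pancreas effect of Ccng1 was 0.61. The difference for AA465934 was -0.22 with ratios over 20 libraries, -0.96 with a pseudocount of 0.1 and -0.20 in males alone. It was 0.0852 for Stfa2l1 with 30 libraries and 0.0845 without the Clps-rich kidneys, where it was 0.14 for Cdkn1a and -0.19 for Ccng1. For Ccng1 it was -0.0381 with upper-quartile scaling and -0.29 in males alone. The kidney effect of Cdkn1a was 0.56 with Xist, 0.95 without the Clps-rich kidneys and 0.55 in males alone, and the pancreas effect of Bdh1 was -0.0189 with array weights. Without single libraries, the difference ranged from -0.33 to 0.27 for Stfa2l1, -0.23 to 0.51 for Myc and -0.0383 to 0.179 for Ccng1, and the kidney effect of Cdkn1a from -0.31 to 0.25. Depth per gene is unknown, so genes near 0 FPKM, such as Stfa2l1, are the least precise.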
